A study of Mus musculus with 4 samples.

Results

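*Lgr5*, *Lgr6*, *Lhx2*, *Sox9*, *Cd34*, *Lrig1* and *Plet1* are genes by which stem and progenitor cells of the mouse hair follicle are usually recognized, and these 7 were chosen by name from the 328 genes of a Xenium panel. Xenium is an imaging method that detects individual RNA molecules where they lie in a section and gives each a position and a cell. The study asked how skin changes when PITX1, a transcription factor of the oral epithelium, is switched on in epidermal keratinocytes. Mice carried the Tet-On transgenes TRE-*Pitx1* and *Krt5*-rtTA, in which the *Krt5* promoter drives the doxycycline-dependent activator in basal keratinocytes, so that the transgene depends on doxycycline in the diet. PITX1+ mice ate such a diet for 6 weeks, beginning in the resting phase of the hair cycle, and siblings without the drug served as Control. Ages were not given in the sources used here. The sections compared were 3 Control and 4 PITX1+ sections of unwounded dorsal skin, 7 sections of healthy buccal mucosa from both sexes, and, from male mice 4 days after a full-thickness wound, 1 Control and 2 PITX1+ wounds. Control 1 and 2 and PITX1+ 1 and 2 shared the female slide, and Control 3 and PITX1+ 3 and 4 the male slide, so sex and slide cannot be told apart. The labels name the conditions on a slide but not the condition of each section, which was assigned from the order of the sections along the slide.

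The hair follicle is rebuilt in cycles from a reservoir of stem cells in the bulge of its outer root sheath. LHX2 and SOX9 are transcription factors that bulge cells need, CD34 is a surface glycoprotein of the mouse bulge, and LGR5 is an R-spondin receptor of the lower bulge and of the outer root sheath of growing follicles. LGR6, its relative, marks the isthmus above the bulge and part of the epidermis, LRIG1 restrains EGF receptors and marks the junctional zone and the sebaceous duct, and PLET1 marks the junctional zone and upper isthmus. None of these proteins belongs to the follicle alone. CD34 is abundant on dermal fibroblasts and on endothelium, and LGR5, SOX9 and LRIG1 occur in progenitors of other organs.

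The 17 sections held 426404 cells with at least 10 transcripts, and the 7 genes gave 448475 transcripts in them, 1.28% of the panel's. A transcript of at least 1 of the 7 genes was found in 42.1% of cells. Levels are given as CPM, the transcripts of a gene per 1000000 panel transcripts in the same cells. Since probes differ in efficiency and no length correction applies, levels of different genes are not compared. Total panel counts per section were 474847 to 749248 in Control skin, 2832562 to 5581930 in PITX1+ skin, 136365 to 2368603 in buccal mucosa and 1622746 to 5430303 in wounds. Negative control probes stood at 3.68 to 31.7 CPM each on the 4 slides, and 25 of 515766 cell names occurred on more than 1 slide. *Pitx1* did not separate the conditions on the female slide. Whole sections held 76.3 and 53.8 CPM in Control 1 and 2 against 53.7 and 63.5 CPM in PITX1+ 1 and 2, whereas the male slide held 11.2 CPM in Control 3 against 727 and 437 CPM in PITX1+ 3 and 4. The induced transcript thus did not bear out the assignment of the female sections, and section values are given below slide by slide. Some other genes differed between the female sections, and their choice was made with the values known. *Krt15* stood at 24456 and 32970 CPM in Control 1 and 2 against 1949 and 3357 CPM in PITX1+ 1 and 2, and *Krt4*, an oral keratin, at 84.5 and 82.8 against 223 and 470 CPM. On the male slide they differed the same way, at 11126 against 7147 and 9839 CPM and at 17.9 against 580 and 96.0 CPM. *Flg*, a protein of the cornified layer, differed on the female slide alone (2368 and 2564 against 19902 and 10518 CPM, male 2682 against 2506 and 2962 CPM), and *Lor*, another, overlapped there (20160 and 22569 against 20490 and 11676 CPM). Activated keratinocyte-like cells numbered 0 and 0 against 4378 and 4213. Buccal 3 also departed from its label, since no cell of it was called keratinocyte-like and *Krt5*, the main keratin of basal epithelium, stood at 410 CPM, against 79007 CPM of *Des*, the intermediate filament of muscle. It contributes nothing to buccal keratinocyte values.

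In Control skin, 5 of the 7 genes had their highest mean level among cell kinds in *Krt15*-led basal or outer follicle keratinocytes, and *Cd34* and *Plet1* had theirs elsewhere. Cells had been clustered without these 7 genes and named from markers, hence the ending -like. Keratinocyte-like cells of all kinds together, a class that leaves out the cycling cluster, supplied 45.5% of panel transcripts in Control sections. They supplied 84.8% of those of *Plet1* (range over 3 sections 81.2% to 87.8%), 82.4% of *Sox9* (80.6% to 83.6%), 80.5% of *Lhx2* (73.8% to 84.8%) and 75.4% of *Lgr6* (72.0% to 79.9%). For *Lgr5* (56.9%, 51.3% to 62.1%) and *Lrig1* (54.9%, 42.9% to 64.4%) the share was lower, and a share of the rest lay in fibroblast-like cells, 24.3% and 16.0%. For *Cd34* it was 14.6% (10.4% to 17.3%), and fibroblast-like cells held 60.8% (53.7% to 66.2%). In PITX1+ sections, where keratinocyte-like cells supplied 50.3% of panel transcripts, their share was 49.8% (30.3% to 66.0%) for *Lgr6* and 57.0% (40.4% to 76.4%) for *Lhx2*, while for *Plet1* it was 87.3% (78.8% to 92.1%). The cycling cluster, left out of these shares, held a further 24.8% of *Lgr6* (0.195% to 51.7%) and 27.3% of *Lhx2* transcripts (0.154% to 55.2%) in PITX1+ against 1.71% and 3.04% in Control sections, so the lower shares of both genes in PITX1+ depend on where that cluster is counted.

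**Figure D1:**
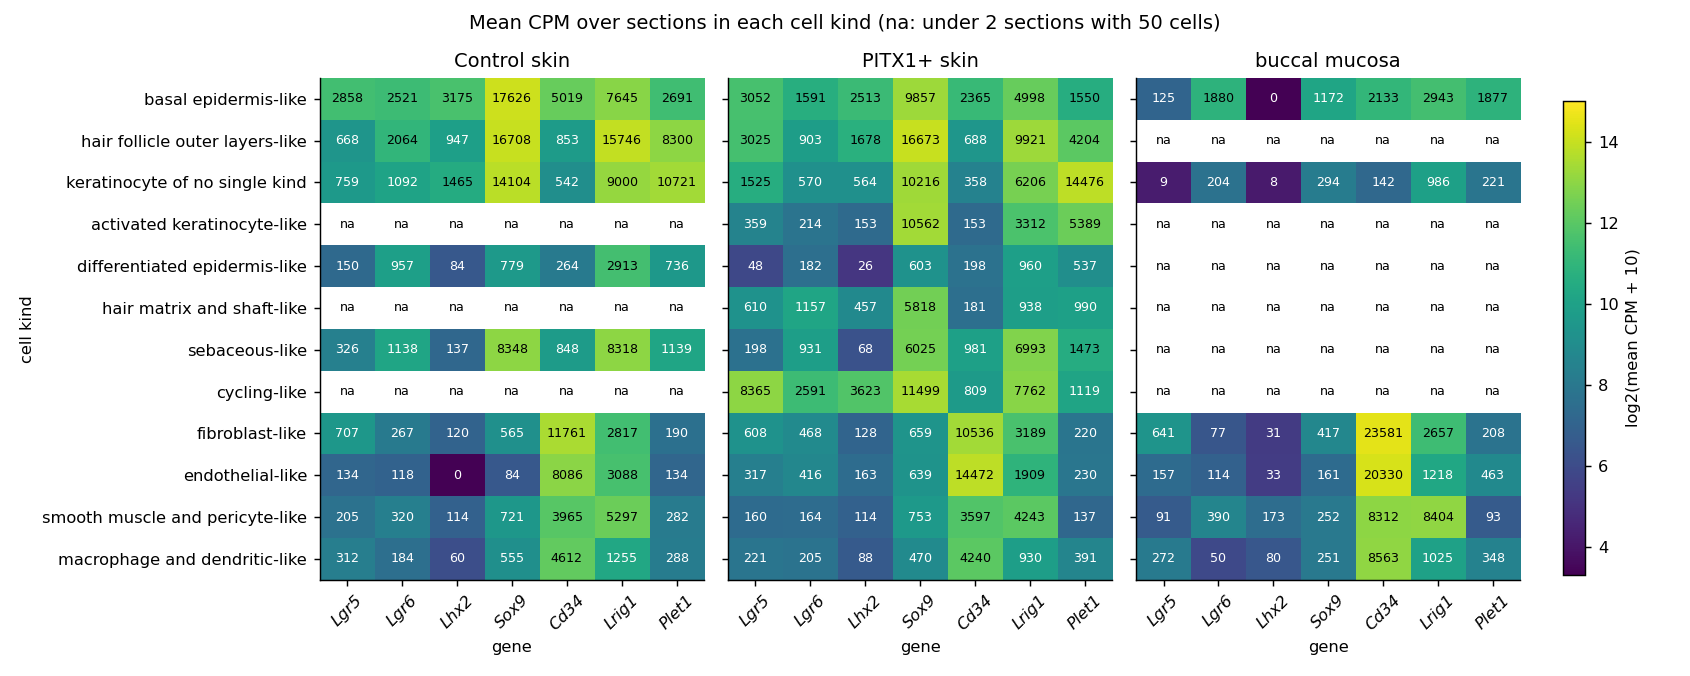
Mean CPM of each gene (columns) in each cell kind (rows) over Control, PITX1+ and buccal sections with at least 50 cells of the kind, coloured by log2 of the mean CPM plus 10. *Cd34* is highest in fibroblast-like and endothelial-like cells in all 3 tissues, and in Control skin the remaining genes are highest in keratinocyte kinds, the row named basal epidermis being there nearly all 1 cluster led by *Wfdc3* and *Krt15*.

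The class named basal epidermis-like from its markers joined 2 clusters that differed in these genes. The cluster led by *Wfdc3* and *Krt15*, a keratin known from bulge cells, held *Lhx2* at 3495, *Lgr5* at 3710 and *Sox9* at 16186 CPM over all sections, and the one led by *Fcgbp* and *Stfa3* held them at 78.8, 82.6 and 1174 CPM. In Control skin the class was nearly all the former, with 5991 cells against 69, so its Control values are those of *Krt15*-led basal cells and are not read as those of the epidermis between follicles. The bulge transcription factors stood highest there. *Lhx2* averaged 3175 ± 1054 CPM (SD, n = 3) in Control skin, with section values from 2200 to 4294 CPM. This overlapped the next kind, keratinocyte-like cells of no single kind (784 to 2279 CPM), which in turn overlapped outer follicle-like cells (797 to 1192 CPM). *Lhx2* was at 303.9 CPM or less in sebaceous-like cells. *Sox9* averaged 17626 ± 5479 CPM in *Krt15*-led basal cells and 16708 ± 1401 CPM in outer follicle-like cells, which overlapped. The outer follicle-like sections, but not all basal ones, lay above the 14104 ± 838 CPM of cells of no single kind. *Sox9* then fell, each step without overlap, to 8348 ± 913 CPM in sebaceous-like cells and, past an unnamed group, to 779 ± 38.8 CPM in differentiated epidermis-like cells.

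The R-spondin receptors differed from each other in where they were found. *Lgr5* averaged 2858 ± 2495 CPM in *Krt15*-led basal cells of Control skin, a spread that came from 1 section, since the values ran from 1182 to 5725 CPM and the highest was Control 3 on the male slide. The next kinds, from 759 CPM in cells of no single kind to 668 CPM in outer follicle-like cells, all overlapped it or one another. Fibroblast-like cells were among them, at 339, 399 and 1384 CPM. *Lgr6* was steadier. It averaged 2521 ± 314 CPM in *Krt15*-led basal and 2064 ± 301 CPM in outer follicle-like cells, which overlapped, and the latter stood above the 1138 ± 228 CPM of sebaceous-like cells without overlap.

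The junctional zone genes peaked in other clusters than *Lgr5* and *Lhx2*. *Lrig1* averaged 15746 ± 905 CPM in outer follicle-like cells, above every other named kind without overlap, the next being cells of no single kind at 9000 ± 1324 CPM. *Plet1* averaged 10721 ± 3459 CPM in cells of no single kind and 8300 ± 631 CPM in outer follicle-like cells, which overlapped, and 2691 ± 526 CPM in *Krt15*-led basal cells, below both. Among the cells of no single kind, *Plet1* was high in a cluster led by *Krt79*, a keratin of the follicle infundibulum, and *Crabp2*, which binds retinoic acid. It stood there at 10288, 8923 and 16515 CPM in the Control sections and at 17909, 15598, 23213 and 29024 CPM in PITX1+ 1 to 4. In that cluster *Lgr5* was at 334 CPM or less in every unwounded skin section. A second cluster, led by *Aldh1a3*, *Sprr2d* and *Hbegf* and nearly absent from Control skin with 2 cells, held *Plet1* at 18868, 9996 and 17043 CPM in PITX1+ 1 to 3.

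*Cd34* was chiefly a gene of the dermis in these sections. Fibroblast-like cells held 8520, 6355 and 20409 CPM in Control 1 to 3, and endothelial-like cells 4607, 3331 and 16320 CPM, so the 2 kinds overlapped. Both were higher on the male slide. The same was true of PITX1+ skin, with 3214 and 3327 CPM in fibroblast-like cells of the female sections against 16454 and 19149 CPM in the male ones. Among keratinocytes *Cd34* was highest in *Krt15*-led basal cells, at 5019 ± 4198 CPM. Immune-like cells, which are not known to make *Lgr5* or *Lhx2*, give a level that neighbours' transcripts may lend to cells where they lie. In Control skin it was 271 to 349 CPM for *Lgr5* and 54.1 CPM at the median for *Lhx2*. What neighbours lend to keratinocytes may differ from this and was not measured. Immune-like cells held *Cd34* at 2651 to 7366 CPM, and whether they make it themselves was not tested. The part of dermal transcripts in the keratinocyte level of *Cd34* was not tested.

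The cluster led by *Wfdc3*, *Krt15* and *Col17a1*, a hemidesmosomal collagen, made up 14.8%, 16.0% and 12.2% of the cells of Control 1 to 3. In PITX1+ 1 to 4 it made up 1.07%, 0.740%, 2.32% and 4.53%. *Lhx2* in this cluster was at 2207, 3037 and 4592 CPM in Control and at 1492, 2200, 5904 and 5328 CPM in PITX1+ sections, and the groups overlapped. *Cd34* was at 2743, 2463 and 10549 CPM in Control and at 605, 913, 5841 and 4869 CPM in PITX1+ sections. On each slide the PITX1+ values of *Cd34* lay below those of Control in these cells. *Lgr5* in the cluster stood at 1186, 1670 and 6122 CPM in Control and at 2580, 1702, 7537 and 6163 CPM in PITX1+. The PITX1+ values were the higher on each slide, but PITX1+ 2 and PITX1+ 4 by less than the Control sections differed from each other.

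PITX1+ skin held clusters with high *Lgr5* that were rare in Control skin. The cycling cluster, with the cell cycle genes *Uhrf1* and *Top2a* among its leading genes, had 38 cells in the 3 Control sections together and 36, 337, 5030 and 3142 in PITX1+ 1 to 4, so that it was chiefly found in PITX1+ sections of the male slide. Its *Lgr5* level was 4260, 10633 and 10202 CPM in PITX1+ 2 to 4, and its *Lhx2* level 3184, 2848 and 4837 CPM. The 38 Control cells, all of Control 3, held *Lgr5* at 17479 and *Lhx2* at 13242 CPM, on 33 and 25 transcripts. High *Lgr5* in this cluster was thus not particular to PITX1+ skin. Cycling-like cells supplied 30.9% of *Lgr5* transcripts in PITX1+ sections, from 0.289% in the lowest section to 64.4% in the highest. A cluster led by *Ptch1*, *Cntfr* and *Lbh* had *Lgr5* at 3569, 3900 and 11181 CPM in PITX1+ 1 to 3, and one led by *Dsg2*, *Sostdc1* and *Lama3* at 1148, 2095, 6652 and 5565 CPM in PITX1+ 1 to 4. Male PITX1+ sections were higher than female ones in each of these clusters. Among 20 transcripts drawn per cell of the *Ptch1* cluster, *Lgr5* was found in 4.48% and 7.55% of cells in Control 1 and 2. These shares rest on 67 and 53 cells. In PITX1+ 1 and 2 they were 6.89% and 7.44%. In the outer follicle-like cluster led by *Krt79* and *Fcgbp*, by contrast, *Lgr5* was at 113 to 435 CPM in Control and 249 to 600 CPM in PITX1+ sections, while *Lrig1* was at 15912 to 16648 and 9920 to 15175 CPM.

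Over clusters, the panel genes outside the 7 whose levels followed each of these genes most closely were found by Pearson's r of log2(CPM + 10) over 45 clusters, which share sections and depth, so that r is a description. *Cntfr* (0.84) and *Ptch1* (0.77) were among the 3 nearest to *Lgr5*. *Sostdc1* (0.91), *Wnt6* (0.85) and *Efna2* (0.82) came nearest to *Lgr6*. Among the 7 themselves, *Lhx2* was at 0.87 with *Lgr5* and 0.85 with *Lgr6*, and *Plet1* at 0.78 with *Sox9*. For *Lhx2* the 3 nearest outside the 7 included *Efna2* (0.81) and *Wfdc3* (0.79), and for *Sox9* they were *Dsg2* (0.85), *Epha4* (0.82) and *Gstm5* (0.81). *Cd34* was followed by the fibroblast genes *Angptl2* (0.92) and *Lum* (0.91) and by *Scn7a* (0.90), which the study lists for nonmyelinating Schwann cells. *Lrig1* had *Ephb4* (0.77), *Lrp6* (0.75) and *Sostdc1* (0.75), and *Plet1* the simple epithelial keratins *Krt18* (0.80) and *Krt8* (0.79) and *Dsg2* (0.75).

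PITX1+ and Control sections were then compared with edgeR on counts summed per section, with the slide as covariate and p-values adjusted over all panel genes. In whole sections *Cd34* was lower in PITX1+ and the other 6 genes did not pass the threshold, against 20.4% of the 328 panel genes called, 10.4% higher and 10.1% lower. *Cd34* stood at 3059, 2643 and 10290 CPM in Control 1 to 3 and at 882, 1212, 5110 and 7271 CPM in PITX1+ 1 to 4. Every PITX1+ section was below the Control sections of its slide. The log2 fold change was -1.28 ± 0.26 (SE, edgeR adjusted p = 0.0166). In sums over a section, fewer cells of a kind and fewer transcripts per cell cannot be told apart. Without Control 1, Control 2 or PITX1+ 2, the call was lost (edgeR adjusted p = 0.0510, 0.0719 and 0.0623), and likewise without the slide covariate (-0.81, edgeR adjusted p = 0.678). The male slide alone gave -0.89, and with 1 Control section no test is read from it.

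**Figure D2:**
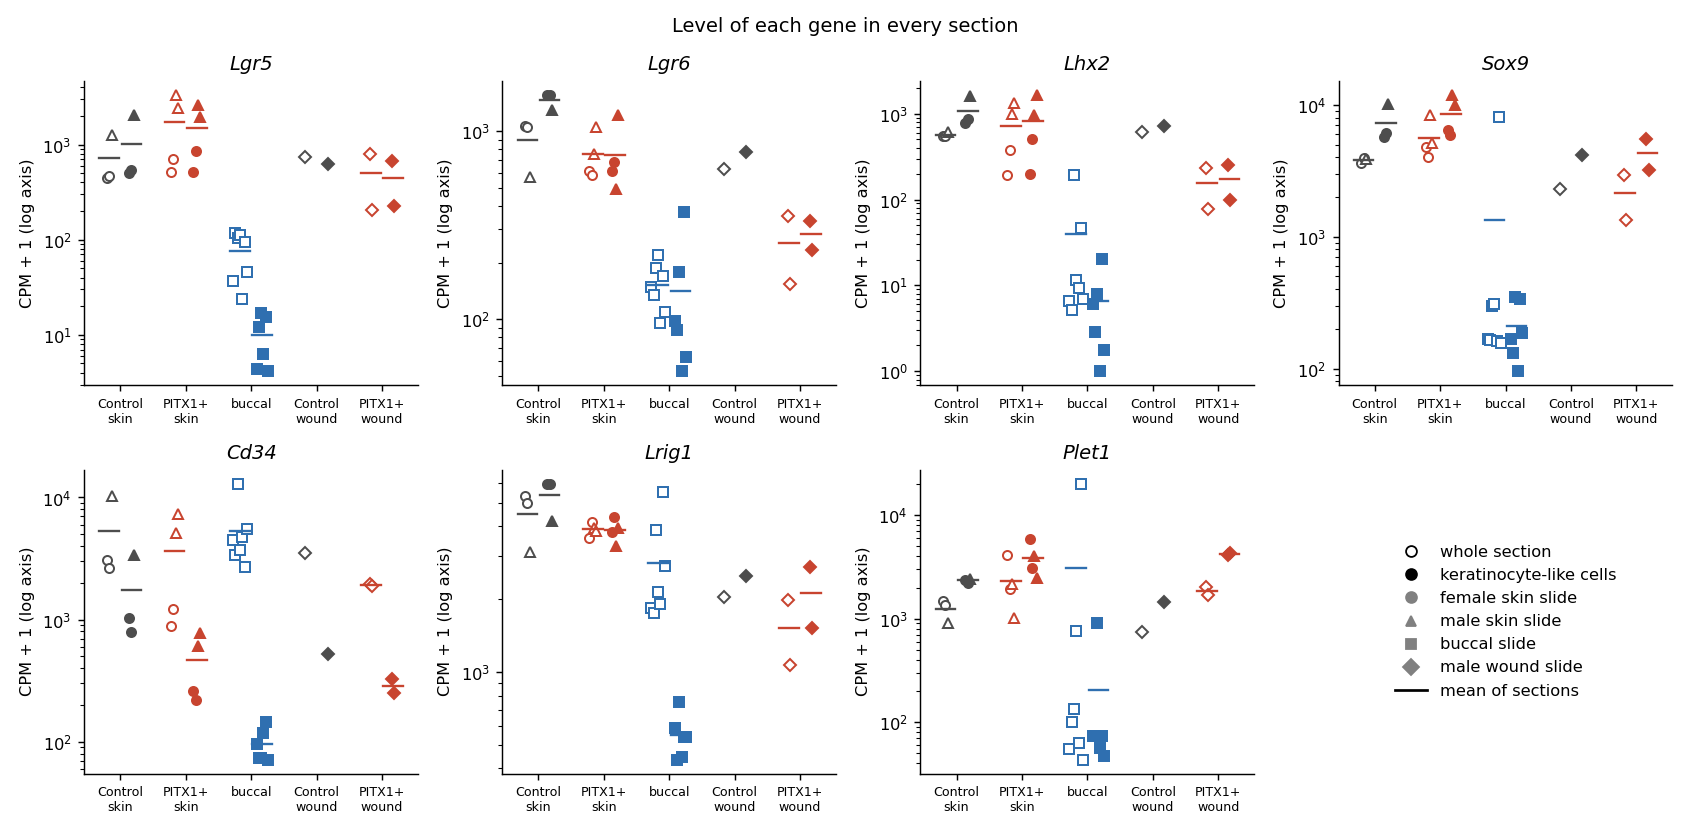
Level of each gene in every section (CPM + 1, log axis), open symbols for whole sections and filled symbols for keratinocyte-like cells, with horizontal bars at the mean of a group. *Cd34* in keratinocyte-like cells lay below both Control sections in the female PITX1+ sections and below Control 3 in the male ones, and buccal keratinocyte-like cells lay below skin for all 7 genes.

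In keratinocyte-like cells *Cd34* was called lower in PITX1+, at levels below those of immune-like cells, and *Lgr6*, *Lhx2* and *Lrig1* had negative and *Plet1*, *Lgr5* and *Sox9* positive estimates that did not pass, against 35.1% of panel genes called, 16.2% higher and 18.9% lower. *Cd34* was at 1039, 786 and 3374 CPM in Control 1 to 3 and at 257, 218, 607 and 771 CPM in PITX1+ 1 to 4. All 4 PITX1+ values were below all 3 of Control. Immune-like cells of the same sections held 3800, 2651 and 7366 CPM in Control and 1142, 1209, 6415 and 8009 CPM in PITX1+, lower in PITX1+ on the female slide as well, and the part of neighbours' transcripts in the keratinocyte difference was not tested. The log2 fold change was -2.01 ± 0.28 (edgeR adjusted p = 0.00581). As differences of mean log2 CPM it was -1.61 on the female and -2.58 on the male slide. It missed the threshold without the slide covariate (edgeR adjusted p = 0.127). The *Krt15*-led cluster, where keratinocyte *Cd34* was highest in Control, was a smaller part of PITX1+ sections, as given above. Fewer such cells and fewer transcripts per cell cannot be told apart in these sums. In outer follicle-like cells alone the estimate for *Cd34* was -0.45 ± 0.38 (edgeR adjusted p = 0.446). *Lgr6* and *Plet1* had groups without overlap too, *Plet1* by a margin of 2445 against 2459 CPM. How many panel genes had such groups was not counted. *Lgr6* was at 1557, 1561 and 1289 CPM in Control and 614, 682, 489 and 1212 CPM in PITX1+ sections, lower in each of the latter. Its estimate of -0.92 ± 0.32 missed the threshold (edgeR adjusted p = 0.0607) and passed it with DESeq2 (-0.96, adjusted p = 0.0263) and without PITX1+ 4 (-1.10, edgeR adjusted p = 0.0188). With the cycling cluster joined it was -0.71 ± 0.28 (edgeR adjusted p = 0.0899). Whole sections held *Lgr6* at 1065 and 1049 CPM in Control against 609 and 585 CPM in PITX1+ on the female slide. On the male slide they ran the other way, at 569 against 760 and 1056 CPM. Fibroblast-like cells, which held most *Cd34* transcripts in Control skin, showed -0.96 ± 0.31 for it (edgeR adjusted p = 0.0823), with 6.1% of panel genes called, 4.57% higher and 1.52% lower. *Cd34* was the only 1 of the 7 there with an unadjusted p under 0.05, and DESeq2 called it (-1.11, adjusted p = 0.00983).

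*Plet1* had the highest positive estimate in keratinocyte-like cells, 0.82 ± 0.38 (edgeR adjusted p = 0.126). Its values were 2358, 2224 and 2445 CPM in Control 1 to 3 and 5908, 3074, 4064 and 2459 CPM in PITX1+ 1 to 4, with PITX1+ 4 above Control 3 by less than the range of Control. The estimate passed on the female slide alone (1.36, edgeR adjusted p = 0.0206) and without PITX1+ 4 (1.11, edgeR adjusted p = 0.0424). *Lhx2* went from 785, 860 and 1599 CPM to 196, 503, 957 and 1654 CPM, with overlap on the male slide (-0.79 ± 0.37, edgeR adjusted p = 0.134). *Lgr5* was at 501 and 536 CPM in Control and 519 and 857 CPM in PITX1+ sections of the female slide, and at 2036 CPM against 2575 and 1951 CPM on the male slide (0.37 ± 0.30, edgeR adjusted p = 0.342). All male values exceeded all female ones. This class leaves out the cycling cluster, and with it joined the estimate was 0.73 ± 0.24 (edgeR adjusted p = 0.0531). Whole sections held *Lgr5* at 444 and 464 CPM in Control against 513 and 710 CPM in PITX1+ on the female slide, and at 1261 against 3329 and 2408 CPM on the male slide, higher in PITX1+ on each (0.60 ± 0.27, edgeR adjusted p = 0.145). *Sox9* (0.15 ± 0.22, edgeR adjusted p = 0.599) and *Lrig1* (-0.34 ± 0.19, edgeR adjusted p = 0.183) had the smallest estimates. A test of whether the PITX1+ change differed between slides called none of the 7 genes, in whole sections or in keratinocyte-like cells, while it called 17 and 8 of 328 panel genes (edgeR). The lowest unadjusted p among the 7 was 0.0548, for *Lgr6* in whole sections.

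**Figure D3:**
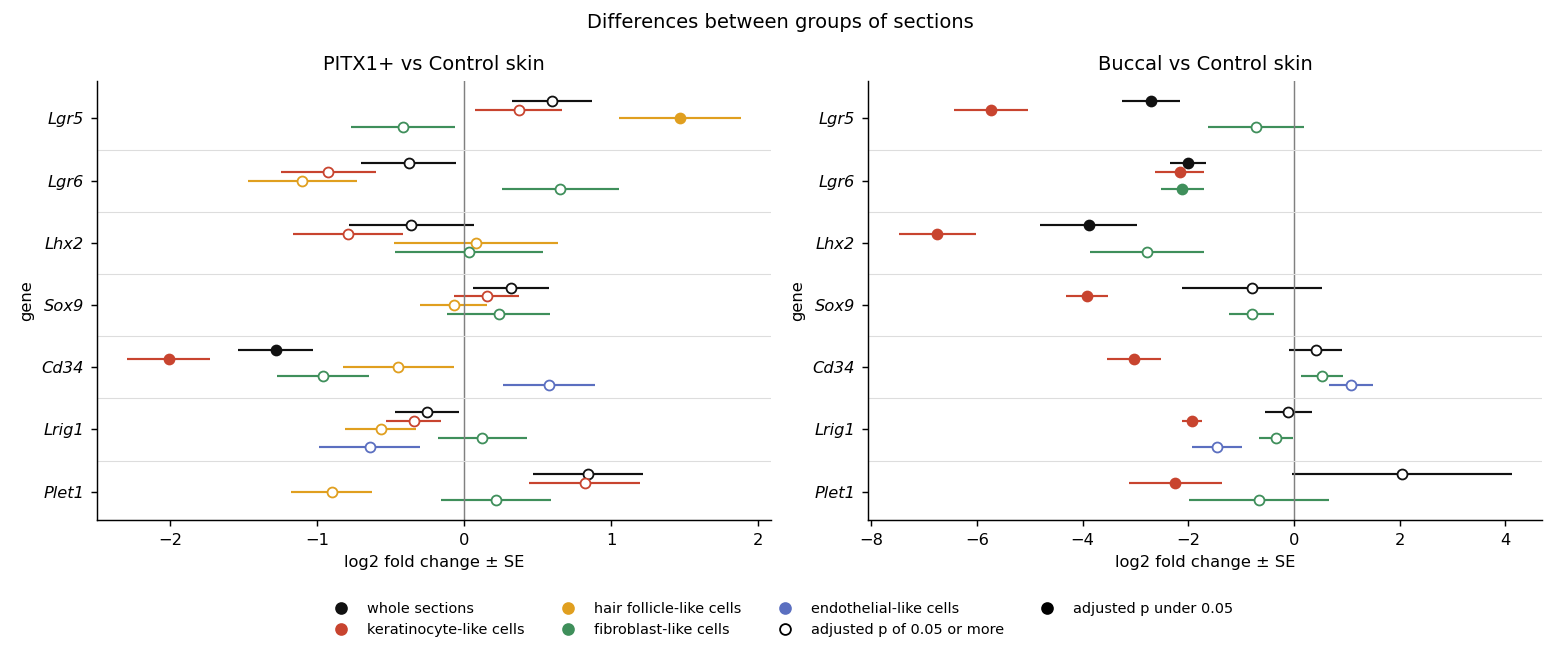
Log2 fold change (horizontal axis, ± SE, edgeR) of each gene in PITX1+ against Control skin (left) and buccal mucosa against Control skin (right), coloured by cell class, filled where the adjusted p was under 0.05. *Cd34* and, in follicle-like cells, *Lgr5* are the filled points on the left, and all 7 genes are filled and negative for keratinocyte-like cells on the right.

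Among outer follicle-like cells alone *Lgr5* was called higher in PITX1+ and no other gene of the 7 passed. Of the 324 panel genes tested, 11.4% were called, 8.02% higher and 3.4% lower. *Lgr5* was at 297, 429 and 1277 CPM in Control and at 607, 698, 6284 and 4510 CPM in PITX1+ sections, higher on each slide. Immune-like cells of Control 1 to 3 held 349, 271 and 316 CPM, so that the value of Control 1 does not stand above theirs. The log2 fold change was 1.47 ± 0.41 (edgeR adjusted p = 0.0486). Only 8, 7 and 15 *Lgr5* transcripts stood behind the Control values, and the clusters that formed the class differed, with 1351 of its Control cells in the *Krt79* and *Fcgbp* cluster and 94 in the *Dsg2* cluster, against 7440 and 8077 in PITX1+ sections. The estimate was positive in 17 of 17 alternatives, among them the male slide alone, from which no test is read. The call was lost without any 1 of Control 1, Control 2, Control 3, PITX1+ 1 or PITX1+ 2 (edgeR adjusted p from 0.0623 to 0.193). *Plet1* (-0.90 ± 0.28, edgeR adjusted p = 0.0573) and *Lgr6* (-1.10 ± 0.37, edgeR adjusted p = 0.0751) had negative estimates in the same cells. Both passed without PITX1+ 4 (edgeR adjusted p = 0.0287 and 0.0315). For *Plet1* the sign was opposite to that over all keratinocyte-like cells.

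Genes of the pathways around these 7 were counted from lists of panel genes in keratinocyte-like cells, where 16.2% of all panel genes were called higher and 18.9% lower. Of the Hedgehog genes, the ligand *Shh* was higher in PITX1+ sections by 4.00 and the receptor *Ptch1* by 1.72 on the log2 scale, beside a median of -0.12 over all genes tested. Of 12 genes of follicle epithelium, 4 were higher and 1 lower, among them the hair desmoglein *Dsg4* (4.38) and *Krt15* (-2.89). Of 12 genes of Wnt signalling, the pathway that R-spondins amplify through LGR5 and LGR6, 1 was higher (*Wnt5a*, 2.43) and 2 were lower (*Wnt16*, -1.36, and *Wnt7a*, -0.83). Of 6 genes of the EGF receptor family, which LRIG1 restrains, the ligands *Areg* (2.56) and *Tgfa* (1.51) were higher. None of 8 genes of the BMP pathway passed. Of the panel, 35.1% was called in either direction, and the lists were not tested against it.

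Buccal mucosa has no hair, and its comparison with Control skin gives the level of these genes in an epithelium without follicles. That epithelium differs from skin in other ways too. *Pitx1*, for 1, stood at 737 to 1259 CPM in buccal against 14.1 to 58.9 CPM in Control keratinocyte-like cells. The part of follicles in the differences was not tested, and tissue and slide cannot be told apart in this comparison. In keratinocyte-like cells all 7 genes were called lower in buccal sections by edgeR, against 69.8% of 321 panel genes called, 32.4% higher and 37.4% lower. *Lhx2* averaged 5.63 CPM in the 6 buccal sections that had such cells, between 0 and 19.2 CPM, the 0 being Buccal 5, where no transcript among 560229 allows up to 5.35 CPM. These levels are close to the 3.68 CPM of a negative control probe on that slide, so no fold is given for the difference from the 785 to 1599 CPM of Control (edgeR adjusted p = 1.99e-05). *Lgr5* averaged 8.86 CPM (3.15 to 15.8 CPM), with 2 of 6 sections below that probe, against 501 to 2036 CPM in Control (edgeR adjusted p = 3.79e-05). *Sox9* averaged 211 CPM (94.6 to 350.3 CPM), a change of -3.92 ± 0.40 (edgeR adjusted p = 1.36e-05). None of the buccal values of these 3 genes reached the lowest Control section.

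*Cd34* (-3.03 ± 0.51, edgeR adjusted p = 0.000367), *Lgr6* (-2.16 ± 0.47, edgeR adjusted p = 0.00192) and *Lrig1* (-1.94 ± 0.19, edgeR adjusted p = 1.10e-05) were lower too. *Plet1* was at 46.4 to 73.2 CPM in 5 sections and 903 CPM in Buccal 4, and its change of -2.25 ± 0.88 (edgeR adjusted p = 0.0405) lost the threshold without any 1 of 8 sections, both groups included (adjusted p from 0.0603 to 0.103). In the buccal cluster led by *Mt3*, *Col17a1* and *Wnt16*, *Lrig1* was at 1122 to 1603 CPM and *Lgr5* at 38.0 CPM or less. These changes are relative to TMM scaling, under which the median panel gene changed by -0.19. Scaled by library size it changed by -1.54, the changes of the 5 genes for which a fold is given ran from -5.13 to -3.30, and the calls above 0 went from 46.4% to 20.7% of all calls.

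In fibroblast-like and endothelial-like cells *Lgr6* alone of the 7 genes was called between buccal mucosa and Control skin. *Cd34* was at 20948 to 26406 CPM in buccal fibroblast-like cells, against 6355 to 20409 CPM in Control skin (0.54 ± 0.40, edgeR adjusted p = 0.302), with 33.3% of panel genes called, 13.5% higher and 19.9% lower. Without Control 3 it was higher (1.60, edgeR adjusted p = 0.000175), and *Lhx2* lower (-3.10, edgeR adjusted p = 0.0296), in these cells. *Lgr6* was lower in these cells (-2.11 ± 0.41, edgeR adjusted p = 0.00226), from 142 to 374 CPM to 43.4 to 113 CPM, on 2 to 14 transcripts in each buccal section. Immune-like cells held *Lgr6* at 227 and 325 CPM in Control 1 and 2, with no transcript in Control 3. With nuclear transcripts alone the gene did not pass the filter on low counts and was not tested. *Lrig1* in buccal mucosa was chiefly found in a muscle-like cluster led by *Des*, where it stood at 7803 to 9486 CPM. The class named smooth muscle and pericyte-like, which includes this cluster, held 52.0% of its buccal transcripts (7.99% to 67.8%). Whether the *Des* cluster is smooth or skeletal muscle was not tested. In Control skin *Lrig1* stood at 6467 to 7178 CPM in that cluster. *Lgr5* had its highest buccal mean in fibroblast-like cells, at 70.5 to 1643 CPM. In endothelial-like cells 2 of the 7 genes passed the filter on low counts and neither was called (*Cd34* 1.08 ± 0.41, edgeR adjusted p = 0.101, *Lrig1* -1.46 ± 0.48, adjusted p = 0.0721), with 9.32% of 161 panel genes called, 4.97% higher and 4.35% lower. *Cd34* passed without Control 3 (2.24, edgeR adjusted p = 0.000633), and both passed without Buccal 3 (*Cd34* adjusted p = 0.0476, *Lrig1* adjusted p = 0.00458). The same 2 genes were tested there for PITX1+ and neither was called (*Cd34* 0.58 ± 0.31, *Lrig1* -0.64 ± 0.34, both edgeR adjusted p = 0.405), with 0% of 207 panel genes called by edgeR, 29 at an unadjusted p under 0.05 and 8 by DESeq2.

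In whole buccal sections the values of *Sox9* and *Plet1* rested on 1 section. Buccal 6 held 8065 CPM of *Sox9* and 20251 CPM of *Plet1*, whereas the other 6 sections held 155 to 309 CPM and 42.2 to 765 CPM. A salivary-like cluster led by *Wfdc18*, *Krt8* and *Krt18* made up 43.2% of the cells of Buccal 6, and in it *Plet1* was at 40938, *Sox9* at 15962 and *Lrig1* at 9666 CPM, while *Lgr5* was at 39.9 CPM. Of the 7 genes, *Lgr5* (-2.71 ± 0.55, edgeR adjusted p = 0.00402), *Lgr6* (-2.01 ± 0.34, adjusted p = 0.00131) and *Lhx2* (-3.88 ± 0.92, adjusted p = 0.00742) were lower in whole buccal sections, against 38.1% of panel genes called, 16.5% higher and 21.6% lower. Without Buccal 6, *Sox9* was lower as well (-3.70, edgeR adjusted p = 1.12e-05), and *Plet1* turned from 2.04 to -2.13 without passing in either case. Without Control 3, *Cd34* was higher (1.34, edgeR adjusted p = 0.0354).

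Co-detection asks which of these genes were found in the same cells. In each section's keratinocyte-like cells, an odds ratio was formed for each of the 21 pairs within strata of transcripts per cell, so that deep cells do not join every gene to every other. Cells of a section are not replicates, and no test was made. Of these pairs, 13 had odds ratios above 1 in 7 of 7 skin sections and none was below 1 in all. No share over pairs of other panel genes is at hand, so the count is not read as a trait of these genes. *Lgr6* with *Plet1* was at 1.34 to 1.49 in Control and at 0.45 to 0.91 in PITX1+ sections. When cells were also matched within clusters, the groups overlapped, at 1.23 to 1.52 and 0.72 to 1.29. *Cd34* with *Lrig1* went the other way, from 0.56 to 0.74 in Control to 1.07 to 2.01 in PITX1+ sections. Matched within clusters, this pair was at 0.43 to 0.68 and 0.78 to 1.36, without overlap. *Lgr5* with *Lhx2* had the highest median, 3.93 (range 1.44 to 7.06), followed by *Lgr5* with *Cd34* at 3.37 (2.49 to 6.12), *Lhx2* with *Sox9* at 2.64 (1.90 to 6.55) and *Lhx2* with *Cd34* at 2.54 (2.02 to 5.18). *Lgr5* with *Sox9* came next (2.04, 1.33 to 8.96). The pairs with *Cd34* rest on a detection that, over all keratinocyte-like cells, was below that in immune-like cells, and the part of neighbours' transcripts in them was not tested. *Plet1* joined *Sox9* (2.01, 1.60 to 2.80) and *Lrig1* (1.79, 1.32 to 3.78). With *Lgr5* (0.71, 0.50 to 1.34) and *Cd34* (0.91, 0.68 to 1.01) it was below 1 in 5 of 7 sections each. Within clusters these pairs had higher medians, 0.95 for *Lgr5* and 1.06 for *Cd34*, the latter above 1 in 4 of 7 sections.

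**Figure D4:**
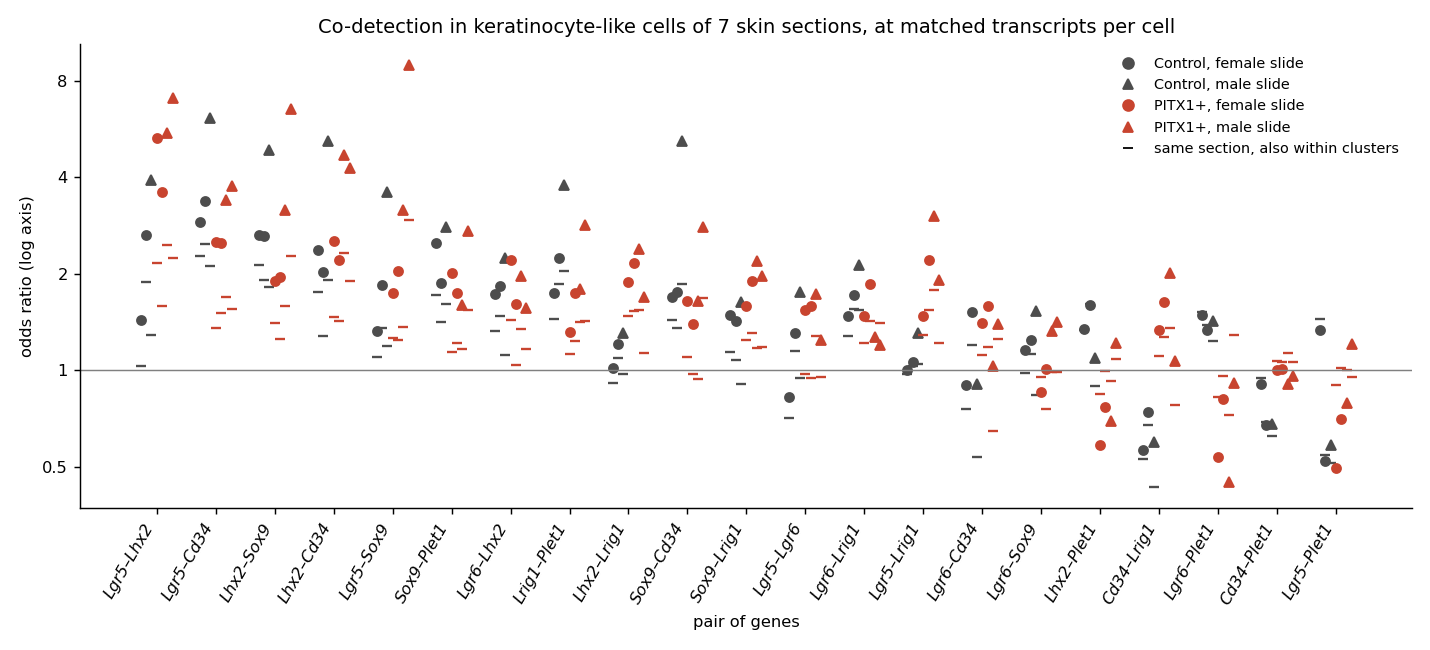
Odds ratio (log axis) that the 2 genes of a pair were found in the same keratinocyte-like cell, at matched transcripts per cell, for 7 skin sections, with a short bar for the same section after also matching clusters. Pairs are ordered by their median, from *Lgr5* with *Lhx2* at 3.93 to *Lgr5* with *Plet1* at 0.71, and bars lie nearer to 1 than symbols for the highest pairs.

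When cells were also matched within clusters, 9 of the 21 pairs were above 1 in 7 of 7 sections, again with no share over other panel pairs. Medians fell to 1.88 (1.03 to 2.46) for *Lgr5* with *Lhx2*, 1.69 (1.36 to 2.47) for *Lgr5* with *Cd34* and 1.42 (1.13 to 2.04) for *Lrig1* with *Plet1*. As shares, in cells thinned to 20 transcripts, *Cd34* was found in 15.4% of *Lgr5*-positive keratinocyte-like cells of Control skin (7.27% to 28.1% over 3 sections) against 3.33% of the others (1.72% to 5.63%). In PITX1+ skin these shares were 3.17% (0.571% to 6.64%) and 1.07% (0.674% to 1.51%). *Plet1* was found in 10.2% of *Lrig1*-positive cells of Control skin (9.23% to 10.9%) and in 4.58% of the others (3.80% to 5.01%).

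Thinned shares also give how common each gene was at equal depth. Of keratinocyte-like cells in Control skin, 15.8% (13.8% to 19.1%) held a *Sox9* transcript and 10.97% (7.38% to 12.8%) an *Lrig1* transcript among 20, while *Lgr5* was found in 2.44% (1.35% to 4.58%). Before thinning these shares were 23.6%, 20.9% and 3.79%, at median depths of 25 to 47 transcripts per cell. In immune-like cells of the same sections, thinned alike, the shares were 1.08% for *Sox9*, 1.84% for *Lrig1*, 0.479% for *Lgr5* and 8.48% for *Cd34*, at a median depth of 26. The share for *Cd34* in keratinocyte-like cells, 3.73%, was below that of immune-like cells, and the part made by keratinocytes was not tested. In *Krt15*-led basal cells *Cd34* stood at 2734, 2459 and 9864 CPM in Control 1 to 3, against 3800, 2651 and 7366 CPM in immune-like cells. In PITX1+ skin 16.2% (13.9% to 20.6%) of thinned keratinocyte-like cells held *Sox9*, 8.76% *Lrig1* and 3.34% (1.69% to 5.67%) *Lgr5*, beside 0.882%, 1.82% and 0.425% of immune-like cells. Before thinning, at median depths of 66 to 90, these keratinocyte shares were 39.6%, 24.2% and 9.38%. At least 3 of the 7 genes were found in 1.52% (1.09% to 2.08%) of thinned cells in Control skin, 0.744% (0.501% to 0.989%) in PITX1+ skin and 0.00349% in buccal mucosa, where the highest section had 0.0210%. Thinning left out 2936 Control, 3556 PITX1+ and 213 buccal keratinocyte-like cells as too shallow.

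Position was measured as the distance from each keratinocyte-like cell to the nearest differentiated epidermis-like cell, weighted by transcripts, so that genes of the deep follicle lie far. In Control 1 to 3 the median *Lgr5* transcript lay 102, 112 and 138 µm away, against 37.2, 66.3 and 98.4 µm for all panel transcripts. *Lhx2* lay at 90.5, 100.3 and 136 µm, *Cd34* at 92.1, 102 and 133 µm and *Sox9* at 79.2, 91.7 and 124 µm. *Lgr6* (40.1, 84.3 and 115 µm), *Plet1* (66.3, 80.7 and 75.3 µm) and *Lrig1* (41.0, 68.9 and 72.3 µm) lay nearer. *Lgr5* transcripts lay farther than those of *Lhx2*, *Cd34* and *Lrig1* in 7 of 7 skin sections, and *Sox9* farther than *Lrig1* and *Plet1* in 7 of 7. In PITX1+ sections all panel transcripts lay at 133 to 239 µm. There the ratio of *Lgr5* to them, as log2, was 0.60 and 1.25 on the female slide and -0.26 and -0.08 on the male slide.

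**Figure D5:**
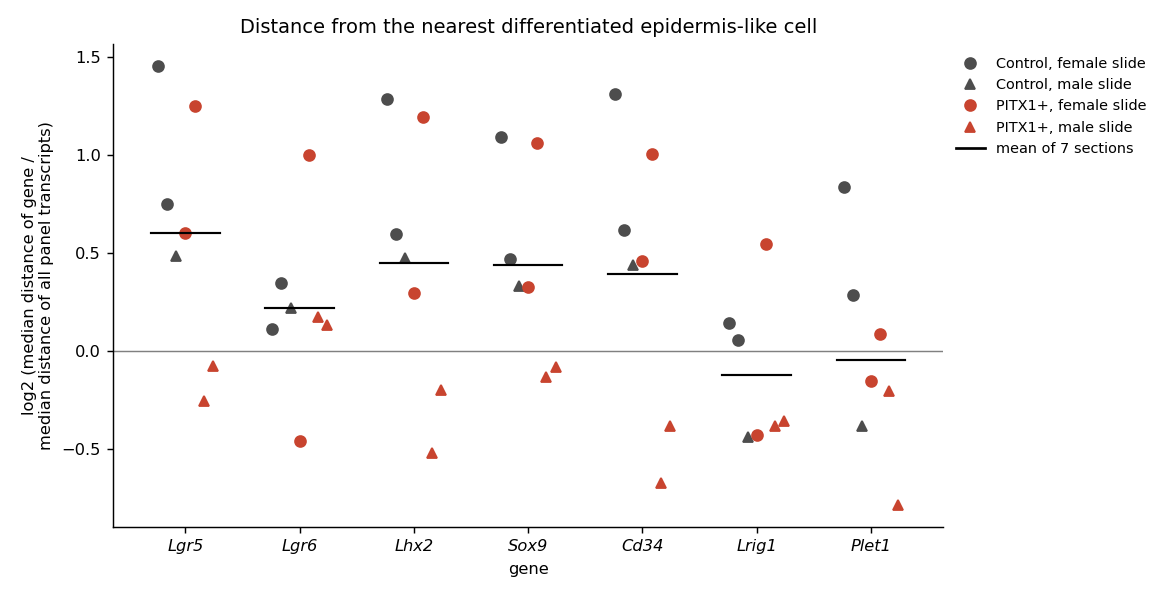
Log2 ratio of a gene's median distance from differentiated epidermis-like cells to that of all panel transcripts (vertical axis), for 7 genes and 7 skin sections, with a bar at the mean. The 3 Control sections lie above 0 for *Lgr5*, *Lgr6*, *Lhx2*, *Sox9* and *Cd34*, and both male PITX1+ sections lie below 0 for those genes except *Lgr6*.

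Over all 7 skin sections none of the genes passed a test against the panel as a whole. The mean log2 ratio was 0.60 for *Lgr5* and 0.44 for *Sox9*, both farther in 5 of 7 sections (exact permutation of signs, two-sided, p = 0.0625 each, adjusted p = 0.161 over 167 panel genes). The smallest p the design allows is 0.0156. The other 5 genes had exact p-values from 0.141 (*Lhx2*) to 0.797 (*Plet1*). At an unadjusted exact p under 0.05 stood 29.9% of the 167 panel genes and none of the 7, and no panel gene passed after adjustment. The smallest adjusted p of any panel gene was 0.0932 (exact permutation of signs), although 17 genes were farther and 11 nearer in all sections. With so few sections the test had little room to call a gene, and no conclusion is drawn from the absence of calls.

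In the wounds, which had 1 Control section so that no test is read from them, *Plet1* alone of the 7 genes was higher in keratinocyte-like cells of both PITX1+ sections. It was at 1464 CPM in the Control wound (95% exact Poisson interval 1372 to 1562), 4103 CPM (3999 to 4209) in PITX1+ wound 1 and 4324 CPM (4225 to 4424) in PITX1+ wound 2. The intervals do not overlap, and they cover counting error only. How many panel genes differed in this way was not counted. The Control wound was also shallow, at a median of 11 transcripts per cell against 31 and 42, with 18276 of its 34635 cells kept. *Lgr6* (779, 334 and 233 CPM), *Lhx2* (725, 249 and 97.1 CPM) and *Cd34* (526, 324 and 248 CPM) were lower in both PITX1+ wounds, with intervals that do not reach the Control interval. *Lgr5* (623, 670 and 227 CPM), *Sox9* (4157, 5492 and 3201 CPM) and *Lrig1* (2491, 2715 and 1523 CPM) were lower in 1 PITX1+ wound and not in the other. Activated keratinocyte-like cells of the cluster with *Areg* and *Krt16* among its leading genes held *Plet1* at 4036, 4638 and 2299 CPM in the 3 wounds, on 108 cells in Control, and *Lhx2* at 48.9 CPM or less. *Pitx1* in whole wounds was at 53.8 CPM in Control and at 340 and 134 CPM in PITX1+.

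The nuclear share of transcripts differed among the genes. Over the 7 skin sections 66.4% to 86.1% of *Lgr5* and 68.9% to 73.0% of *Lgr6* transcripts in keratinocyte-like cells lay over the nucleus, against 42.9% to 51.3% of all panel transcripts, and *Sox9* (48.8% to 55.7%) and *Plet1* (42.5% to 54.6%) were close to the panel. *Cd34* in these cells stood at 61.1%, 56.9% and 69.5% in Control 1 to 3 and at 71.3%, 74.1%, 50.2% and 47.0% in PITX1+ 1 to 4. Buccal keratinocyte-like cells had 15.1% to 23.9% of *Cd34* over the nucleus, below the panel in each section. Promoter windows from RefSeq (GRCm38.p6, 250 bases before to 50 after the start) were held for 5 of the 7 genes, 6 windows in all. TAATCC, the motif read by the PITX family, searched on both strands, was in 0 of the 6 and in 7.06% of 32851 windows of all genes.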

How the data were processed

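Sections of formalin-fixed tissue were imaged by the authors with the Xenium In Situ kit, per the labels, and the instrument's tables were used as deposited. The authors' transcript tables list each decoded molecule with a quality score, its position (other values, in µm) and its cell, and the deposited cell tables give raw counts. Software versions of decoding and segmentation were not given in the sources used here. Molecules were counted per cell from a score of 20 upward, and cells holding 10 or more were kept. Sections were formed by joining cells within 100 µm (200 µm on the wounded slide), with at least 2000 cells, and ordered along the slide. Each section stands for 1 animal per the study's methods.

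Cells were clustered on 321 genes without the 7 members (40 principal components, 45 clusters, scikit-learn 1.9.0). Clusters were named from marker lists by a rule set after the clusters were seen. The keratinocyte-like class leaves out the cycling cluster, and doublets were not removed. The members and all lists were chosen with earlier results of these data known. Counts per section and class (at least 50 cells) were tested with edgeR 4.0.16 (quasi-likelihood, TMM, filterByExpr, Benjamini-Hochberg over all panel genes tested, threshold 0.05), with slide as covariate between PITX1+ and Control, checked on simulated data. Alternatives were DESeq2 1.42.0, library-size scaling, no gene filter, nuclear transcripts, at least 20 transcripts per cell, 30 or 60 clusters, no slide covariate and leaving out each section. Fits within 1 slide and with cycling cells joined were added after seeing the data. Genes named from the panel were, for each member, the 3 with the highest correlation over clusters, and, of each pathway list, up to 4 with the smallest adjusted p. Distances were taken from keratinocyte-like cells that were not themselves targets, for genes with at least 30 transcripts in a section. Panel totals per section are given above, and intervals cover counting error only. Outlines of cells and nuclei were not used. Results for some genes are not reported here.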

Additional observations from a re-analysis of the deposited data

Results flagged for a closer look

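In 56 groups of 4 to 7 sections, 15 had a section that stood apart by Dixon's criterion, and 14 of these were buccal. For normally distributed values chance alone meets the criterion in about 1 of 20 groups, a rate that need not hold for low counts. In whole sections, Buccal 3 held *Lhx2* at 194 CPM (next 45.4 CPM) and *Cd34* at 13000 CPM (next 5473 CPM), and Buccal 6 held *Sox9* at 8065 CPM (next 309 CPM) and *Plet1* at 20251 CPM (next 765 CPM). In keratinocyte-like cells, *Lhx2* stood at 19.2 CPM in Buccal 6 (next 6.91 CPM) and *Plet1* at 903 CPM in Buccal 4 (next 73.2 CPM). In fibroblast-like cells, *Lhx2* stood at 176 CPM in Buccal 3 (next 16.3 CPM) and *Plet1* at 1190 CPM in Buccal 6 (next 141 CPM).

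In endothelial-like cells, *Lgr5* stood at 570 CPM in Buccal 4 (next 226 CPM), *Lgr6* at 444 CPM in Buccal 7 (next 127 CPM), *Sox9* at 781 CPM (next 113 CPM) and *Plet1* at 2344 CPM (next 344 CPM) in Buccal 6, and *Lrig1* at 2407 CPM in Buccal 3 (next 1332 CPM). *Cd34* was low in Buccal 3, at 11674 CPM (next 19582 CPM). *Lhx2* stood at 400.2 CPM in PITX1+ 1 (next 115 CPM). Several of these values rest on few transcripts, 6 for *Lgr5*, 9 for *Lgr6*, 7 for *Sox9*, 21 for *Plet1* and 8 for *Lhx2* in the sections named.

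The change of *Pitx1* with the assigned condition differed between the male and the female slide, by 5.43 on the log2 scale in whole sections (edgeR, adjusted p = 0.0148) and by 5.14 in keratinocyte-like cells (edgeR, adjusted p = 0.0436).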

How the results depend on the processing

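Sections could not be paired animal by animal, because the labels give a replicate number only to each slide, and the sections compared share fewer than 2 numbers. Between PITX1+ and Control the slide covariate compared sections within slides. No call changed its direction under any alternative. Of the 7 genes, the number called between PITX1+ and Control in whole sections was 1, and it was 0 without the slide covariate, 2 on the female slide alone and 0 to 1 without single sections. In keratinocyte-like cells it was 1, and it was 2 with DESeq2 and with 60 clusters, 0 without the slide covariate, 3 on the female slide alone and 1 to 3 without single sections. On the male slide alone it was 0 in both, where 1 Control section makes a lost call no sign of instability. In outer follicle-like cells it was 1, and it was 3 with DESeq2, 0 with library-size scaling, nuclear transcripts, at least 20 transcripts per cell, no slide covariate, the female slide alone and 30 clusters, and 0 to 3 without single sections. In fibroblast-like cells it was 0, and 1 with DESeq2. Between buccal mucosa and Control it was 1 in fibroblast-like cells, and it was 2 with library-size scaling and 30 clusters, 0 with nuclear transcripts, where *Lgr6* did not pass the filter on low counts, and 1 to 3 without single sections. In keratinocyte-like cells it was 7, and it was 5 with DESeq2, which gave no adjusted p for *Lgr5* and *Plet1*, and 6 to 7 without single sections. In endothelial-like cells it was 0, and it was 1 with DESeq2 and 0 to 2 without single sections. The cause was not tested. Panel genes called between PITX1+ and Control numbered 0 to 100 over the alternatives in whole sections (67 in the fit reported), 0 to 158 in keratinocyte-like (115), 6 to 85 in outer follicle-like (37), 0 to 49 in fibroblast-like (20) and 0 to 18 in endothelial-like cells (0). Between buccal mucosa and Control they numbered 74 to 178 (125), 202 to 246 in keratinocyte-like (224), 55 to 173 in fibroblast-like (99) and 6 to 74 in endothelial-like cells (15). Under library-size scaling the share of calls above 0 between PITX1+ and Control went from 50.7% to 63.5% in whole sections and from 75% to 90.5% in fibroblast-like cells, and between buccal mucosa and Control from 43.2% to 27.4% in whole sections, from 40.4% to 61.6% in fibroblast-like cells and from 53.3% to 68.4% in endothelial-like cells. It moved the median of all genes from 0.12 to -0.41 in whole buccal sections and from -0.23 to 0.07 in buccal fibroblast-like cells. None of the 7 genes passed the distance test under its 10 alternatives. No panel gene passed it in the fit reported either, so this is no sign of stability. The *Lgr5* values of outer follicle-like cells in Control rest on 7 to 15 transcripts a section.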
